A study of Mus musculus with 8 samples.

Results

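Ribosome biogenesis in the nucleolus was described here through 38 listed genes, from the subunits of RNA polymerase I to the factors that mature the small and the large ribosomal subunit. Members were found by gene name, older aliases included, among the 17771 gene names of a mouse bead array, and 34 of the 38 had a probe. Of these, 29 were detected on at least 2 of the 8 arrays and were tested, among 7879 genes tested in all. Wdr12, Dkc1, Nop16 and Bysl had probes that were detected on 0 arrays and Rrs1 was detected on 1, so these 5 were not tested. Noc2l, Utp20, Wdr43 and Polr1b had no probe under any of their names.

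The arrays compared CD8+ T cells sorted from melanomas by 3 surface receptors that activated or chronically stimulated T cells carry: the costimulator 4-1BB and the inhibitory receptors LAG3 and PD-1. Female C57BL/6 mice carried B16.SIY.dsRed tumors, a melanoma line that expresses the SIY peptide antigen and a red fluorescent protein, on both flanks, and were left untreated. Tumors of 10 mice were pooled on day 14 for sorting, so each array represents a pool and no single animal. The 4 populations were 4-1BB–LAG3–PD-1– cells (triple-negative), 4-1BB–LAG3–PD-1+ cells (PD-1+), 4-1BB–LAG3+ cells (LAG3+) and 4-1BB+LAG3+ cells (double-positive); the labels give no PD-1 status for the last pair. Each population was measured on 2 arrays, from experiments 1 and 2, and all came from the same kind of tumor. The ages of the mice were not given in the sources used here.

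Ribosomes are assembled from ribosomal RNA and ribosomal proteins, beginning in the nucleolus. RNA polymerase I transcribes a long precursor RNA, small nucleolar ribonucleoproteins (snoRNPs) guide its chemical modification, and sets of assembly factors cut, fold and release the precursors of both subunits. A T cell that is activated by antigen enlarges and divides, and increases ribosome production as it does so, in part through the transcription factor MYC, which binds the E-box CACGTG with its partner MAX.

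Pes1 is shown first by its promoter because it was the one member whose expression passed the test in any comparison. Its promoter lies at chr11:3963855-3964004 on the plus strand of GRCm38.p6 in RefSeq, and is printed from 120 bases before to 30 bases after the annotated transcript start. Capitals mark the E-box CACGTG, a palindrome that reads the same on both strands, at positions 3 to 8 counted from the start of the transcript as 1.
Pes1: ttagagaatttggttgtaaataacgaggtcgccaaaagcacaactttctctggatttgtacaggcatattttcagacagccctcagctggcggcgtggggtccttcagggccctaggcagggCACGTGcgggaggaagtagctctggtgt

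The E-boxes of the other members that had both a probe and the motif are shown with 10 bases on either side where the promoter window reached that far. They lie at chr11:72441357-72441376 for Mybbp1a, chr1:34439698-34439723 for Imp4, chr11:74898094-74898119 for Tsr1 and chr6:125131813-125131838 for Nop2, each on the plus strand.
Mybbp1a: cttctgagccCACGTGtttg
Imp4: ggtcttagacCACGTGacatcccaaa
Tsr1: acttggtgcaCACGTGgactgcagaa
Nop2: gtccctggatCACGTGtgttccggtg

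Promoters of 300 bases, from 250 before to 50 after the start, were listed for 33 of the 38 members, and 7 of the 33 (21.2%) held the motif. The motif was found for 2187 of 27025 genes with a listed promoter (8.09%), and for 1336 of 13821 genes named on the array (9.67%). Among other ribosome biogenesis genes 20 of 106 (18.9%) held it. For Mybbp1a, Imp4, Tsr1 and Nop2 the double-positive minus triple-negative differences were -0.01, 0.23, 0.09 and 0.02 on the log2 scale. Tsr1, detected on 3 of 8 arrays, and Nop2, on 4, were near background.

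Array quality bears on every value below. Between 5522 and 9044 probes were detected per array, and 17 to 30 of the member genes. In each experiment the PD-1+ array had the fewest, with 6404 and 5522 probes and 24 and 17 member genes. Its mean intensity before background correction was also the lowest of each experiment, at 123 and 90.9. The replicate correlation across genes was 0.898 for triple-negative, 0.928 for LAG3+ and 0.934 for double-positive arrays, but 0.771 for the PD-1+ pair, which correlated at 0.778 to 0.853 with arrays of other populations. Of 7 CD8+ T cell markers with a probe, 6 were detected on every array, and the probe of Cd8a on 0. Genes of the melanoma list, with 7 of 8 on the array, summed to 98.7 to 127 intensity units on triple-negative arrays, 718 and 4391 on PD-1+, 415 and 2187 on LAG3+, and 196 and 2282 on double-positive arrays in experiments 1 and 2, with Tyr and Mitf undetected throughout. In a bulk array, fewer expressing cells and less RNA per cell cannot be told apart.

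Pes1 encodes pescadillo, which forms the PeBoW complex with Bop1 and Wdr12 that processes the precursor of the large-subunit RNAs. It was high on both double-positive arrays and near background elsewhere. In log2 intensity, Pes1 measured 4.38 and 4.19 on the triple-negative arrays, 4.15 and 4.17 on PD-1+, 4.21 and 4.11 on LAG3+, and 7.11 and 6.44 on the double-positive arrays of experiments 1 and 2. Before background correction the scanner intensities of the double-positive arrays were 286.1 and 137.2, against 72.2 to 99.3 on the other arrays. The double-positive values lay above all others, by more than the replicate difference of any population, and the probe was detected on both double-positive arrays, on 1 of 2 triple-negative arrays, and on no PD-1+ or LAG3+ array.

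Pes1 rose in double-positive over triple-negative cells by 2.48 ± 0.34 (SE, n = 2 and 2) on the log2 scale, with an adjusted p of 0.0289 by limma, and by 2.72 and 2.25 within experiments 1 and 2. It was the only member called in this comparison, in which 74 of 7879 genes (0.939%) passed an adjusted p of 0.05 and 32 (0.406%) rose. Pes1 met the filter of detection on at least 2 arrays only through the double-positive arrays, since elsewhere it was detected on 1 triple-negative array. The population in which Pes1 is high thus admitted it to the test, which can favour a difference. Against the LAG3+ cells the difference was 2.61 ± 0.34, at least 4.98-fold, the bound being taken against the lowest detected signal on the LAG3+ arrays. Its unadjusted p of 1.13e-04 ranked 1 among all genes in that comparison, but limma's adjusted p was 0.846. Against the PD-1+ cells the difference was 2.61 ± 0.34, at least 3.76-fold, with limma's adjusted p at 0.0640.

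The call on Pes1 was lost under several settings while its direction was kept in all of them. Its adjusted p against triple-negative cells became 0.0998 with median scaling of the arrays in place of quantile normalization, and ranged from 0.0939 to 0.181 by limma when any one triple-negative, LAG3+ or double-positive array was left out. The size of the difference depended on background handling, being 1.06 without background subtraction and 1.43 with an offset of 50.

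Bop1, the partner of Pes1, was also highest on the double-positive arrays, by less. Its log2 levels were 7.15 and 7.20 in triple-negative, 6.32 and 7.01 in PD-1+, 7.17 and 7.55 in LAG3+, and 7.82 and 8.08 in double-positive cells. The double-positive arrays lay above all others, while the triple-negative and LAG3+ ranges overlapped. The double-positive minus triple-negative difference was 0.78 ± 0.36 (limma, adjusted p = 0.413) and the difference from PD-1+ cells 1.29 ± 0.36 (adjusted p = 0.169).

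**Figure D1:**
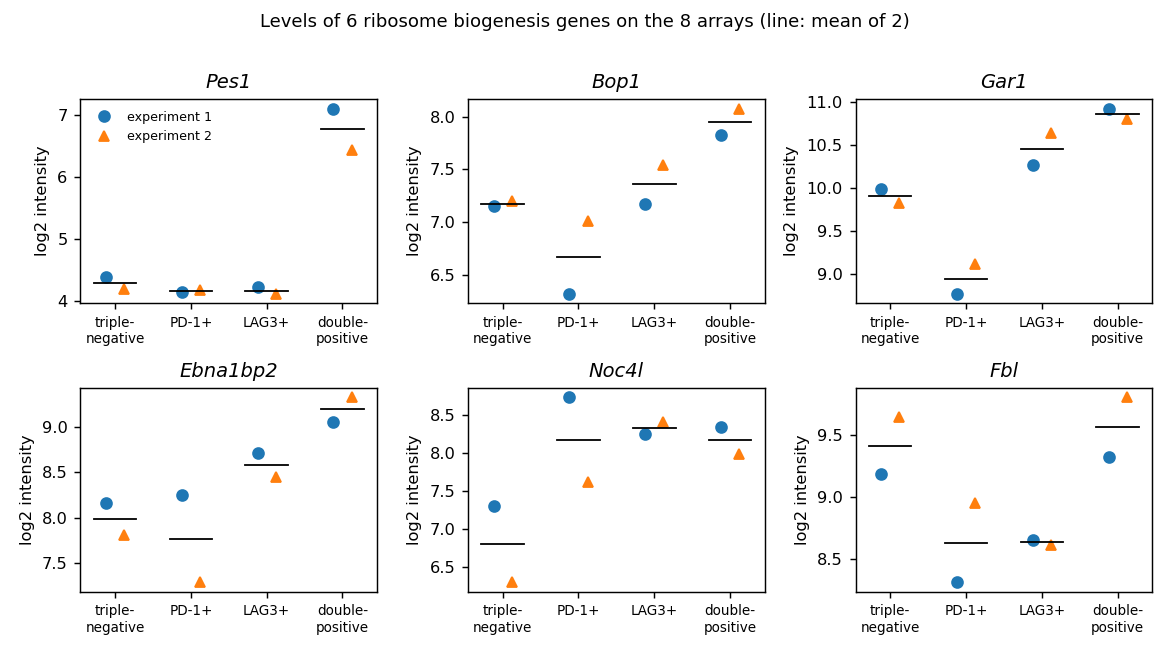
Log2 intensity of Pes1, Bop1, Gar1, Ebna1bp2, Noc4l and Fbl in the 4 sorted populations, with experiment 1 as circles, experiment 2 as triangles and lines at the mean of the 2 arrays; vertical axes differ between panels and do not start at 0. Pes1 lay at 7.11 and 6.44 on the double-positive arrays and at 4.11 to 4.38 on the other arrays, whereas Noc4l was lowest in triple-negative cells and Fbl was lower in PD-1+ and LAG3+ cells than in the other populations.

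Beyond Pes1, the middle of the list lay near the middle of all genes between double-positive and triple-negative cells. Of the 29 members tested, 18 were higher in double-positive cells, against 49.6% of all genes tested, and 4 had an unadjusted p under 0.05, against 13.6% of all genes. Their median difference was 0.02, beside -0.01 over all genes, and under median scaling it was -0.04 beside -0.10 over all genes. All values of the double-positive arrays exceeded both triple-negative values for 7 members and lay below them for 3, compared with 22.6% and 21.7% of all genes.

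After Pes1, the members with the highest values in this comparison were Wdr75, Noc4l, Ebna1bp2 and Gar1, none of which passed the test. Gar1 is a core protein of the box H/ACA ribonucleoproteins, which convert uridine to pseudouridine in ribosomal RNA. It measured 9.99 and 9.82 in triple-negative, 8.77 and 9.12 in PD-1+, 10.27 and 10.64 in LAG3+, and 10.92 and 10.81 in double-positive cells. No 2 populations overlapped, in the ascending order PD-1+, triple-negative, LAG3+ and double-positive. The differences from triple-negative cells were 0.96 ± 0.31 for double-positive (limma, adjusted p = 0.246), 0.55 ± 0.31 for LAG3+ and -0.96 ± 0.31 for PD-1+ cells (adjusted p = 0.229). Between double-positive and PD-1+ cells Gar1 differed by 1.92 ± 0.31, with limma's adjusted p at 0.0693. It was 0.0495 by limma among only the genes detected on all 8 arrays, where 40 of 2973 genes passed.

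Ebna1bp2, a factor of large-subunit assembly whose yeast counterpart is Ebp2, followed the same order in its means on the probe used. Its levels were 8.17 and 7.81 in triple-negative, 8.25 and 7.29 in PD-1+, 8.71 and 8.44 in LAG3+, and 9.06 and 9.33 in double-positive cells. The LAG3+ and double-positive arrays lay above all LAG3-negative arrays, and the triple-negative and PD-1+ ranges overlapped. The double-positive minus triple-negative difference was 1.2 ± 0.41 (limma, adjusted p = 0.251), and it was 0.43 on a second probe of the gene. That probe, detected on 6 arrays, did not follow the order. It gave -0.50 for LAG3+ and 0.29 for PD-1+ minus triple-negative cells, opposite in sign to 0.59 and -0.22 on the probe used.

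Noc4l and Wdr75 both act in the processome that makes the small subunit. Noc4l measured 7.31 and 6.30 in triple-negative, 8.73 and 7.62 in PD-1+, 8.25 and 8.41 in LAG3+, and 8.35 and 7.99 in double-positive cells. Noc4l was lowest in triple-negative cells, and all 6 arrays of the 3 receptor-positive populations lay above both triple-negative arrays. The differences from triple-negative cells were 1.37 ± 0.50 for double-positive, 1.53 ± 0.50 for LAG3+ and 1.37 ± 0.50 for PD-1+ cells, with limma's adjusted p at 0.294, 0.370 and 0.274. A second Noc4l probe gave 0.81, 1.19 and 0.17.

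Wdr75 measured 8.15 and 5.84 in triple-negative, 8.19 and 7.51 in PD-1+, 7.92 and 7.29 in LAG3+, and 8.24 and 8.55 in double-positive cells. Its difference of 1.40 ± 0.73 (limma, adjusted p = 0.496) between double-positive and triple-negative cells came almost entirely from experiment 2, where it was 2.71 against 0.09 in experiment 1. It was 0.24 without the triple-negative array of experiment 2, and 0.37 on a second probe.

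The lowest values in the same comparison were those of Imp3, Nop10 and Polr1c, at -0.29 ± 0.50, -0.26 ± 0.46 and -0.23 ± 0.62, each smaller than its standard error. Imp3, a protein of the U3 snoRNP, measured 8.19 and 8.67 in triple-negative, 6.82 and 7.96 in PD-1+, 8.25 and 7.37 in LAG3+, and 7.96 and 8.31 in double-positive cells. Nop10, the smallest H/ACA protein, measured 5.30 and 5.57 in triple-negative, 5.21 and 4.85 in PD-1+, 5.49 and 4.24 in LAG3+, and 5.05 and 5.30 in double-positive cells. For both genes the double-positive values overlapped the triple-negative ones. Polr1c, a subunit that RNA polymerases I and III share, measured 8.23 and 9.12 in triple-negative, 7.14 and 8.82 in PD-1+, 7.91 and 8.65 in LAG3+, and 8.58 and 8.32 in double-positive cells, again overlapping. Without the triple-negative array of experiment 2 its difference turned to 0.21.

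Within the LAG3+ compartment, where the sorts differed in 4-1BB, most members were higher in the 4-1BB+ cells, although none passed the test. Of the 29 tested, 26 were higher in double-positive than in LAG3+ cells, against 51.5% of all genes, and 20 of them in both experiments, against 27.9% of all genes. The median difference was 0.41, and 0.32 and 0.56 within experiments 1 and 2, beside 0.01 over all genes. By limma, 0 of 7879 genes (0%) passed in this comparison, and 208 genes (2.64%) had an unadjusted p under 0.05, among them Pes1, Ncl, Rrp12 and Fbl. For 15 members both double-positive values exceeded both LAG3+ values and for 1 both were lower, compared with 17.2% and 14.3% of all genes. The melanoma sums of these populations were 415 and 2187 in LAG3+ cells beside 196 and 2282 in double-positive cells. Dendritic cell and class II genes, 7 of 7 on the array with Itgax and Flt3 undetected throughout, summed to 489 and 498 in LAG3+ and to 279 and 277 in double-positive cells. Macrophage genes, 10 of 10 on the array with C1qa, C1qb, C1qc and Itgam undetected on these 4 arrays, summed to 100.3 and 107 in LAG3+ and to 57.5 and 40.8 in double-positive cells. The CD8+ T cell markers summed to 14315 and 14538 in LAG3+ and to 11119 and 12355 in double-positive cells. The part of these signals in the members' differences was not tested.

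Detection by itself can favour a difference, since a gene seen only where it is high passes the filter. Among the 17 members detected on all 8 arrays, which no population selects, 16 were higher in double-positive than LAG3+ cells, with a median of 0.54, beside 0.00 over the 2973 genes detected on all arrays. Median scaling left 22 of the 29 higher, with a median of 0.39 beside -0.17 over all genes. Leaving out the LAG3+ array of experiment 1 raised the median to 0.60.

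Higher means in double-positive cells were found at each step of the pathway. Both PeBoW members, all 3 box C/D proteins, all 3 H/ACA proteins, both polymerase I subunits and all 6 abundant nucleolar proteins tested were higher in double-positive than LAG3+ cells, as were 6 of 8 small-subunit and 4 of 5 large-subunit factors. Under median scaling, which moved the median of all genes to -0.17, the H/ACA proteins turned to 1 of 3 higher, the abundant proteins to 5 of 6 and the large-subunit factors to 3 of 5. Above that median of all genes lay 3 of 3 H/ACA proteins, 5 of 6 abundant proteins, 7 of 8 small-subunit and 3 of 5 large-subunit factors. Rrp1, Noc4l and Nop14 were the 3 members that were not higher, at -0.29, -0.16 and -0.0041.

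**Figure D2:**
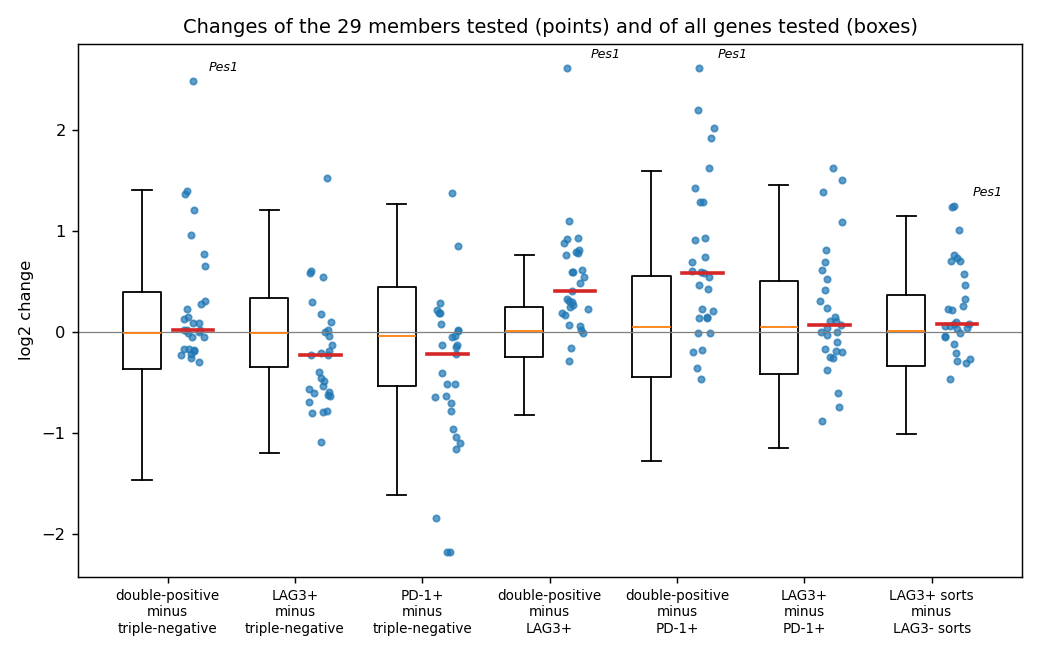
Log2 differences of the 29 members tested (points, with a red line at their median) beside all 7879 genes tested (boxes from the 25th to the 75th percentile, whiskers from the 5th to the 95th, orange line at the median) in 7 comparisons. The members' median was 0.41 for double-positive minus LAG3+ and 0.58 for double-positive minus PD-1+ cells, and 0.02 for double-positive minus triple-negative cells. Median scaling turned the last to -0.04, that of LAG3+ minus PD-1+ cells from 0.07 to -0.18 and that of both LAG3+ sorts minus both LAG3-negative sorts from 0.08 to -0.06, beside medians of all genes of -0.10, -0.65 and -0.43 under that scaling.

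Fbl, Ncl and Rrp12 were the members with an unadjusted p under 0.05 here besides Pes1. Fbl, the methyltransferase fibrillarin of the box C/D snoRNPs, measured 9.19 and 9.64 in triple-negative, 8.31 and 8.95 in PD-1+, 8.66 and 8.61 in LAG3+, and 9.32 and 9.80 in double-positive cells. The double-positive and triple-negative ranges overlapped, and both lay above the PD-1+ and LAG3+ arrays. Fbl differed by 0.93 ± 0.37 between double-positive and LAG3+ cells (limma, unadjusted p = 0.0419, adjusted p = 1.00) and by -0.78 ± 0.37 between LAG3+ and triple-negative cells (adjusted p = 0.609). Its probe derives from a predicted transcript and was assigned to Fbl by the gene identifier of the array annotation.

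Ncl, nucleolin, an RNA-binding protein that accompanies the precursor, measured 8.24 and 8.43 in triple-negative, 7.95 and 7.70 in PD-1+, 7.81 and 7.47 in LAG3+, and 8.39 and 8.46 in double-positive cells. The double-positive values lay above both LAG3+ and both PD-1+ values and overlapped the triple-negative ones. The difference from LAG3+ cells was 0.78 ± 0.30 (limma, adjusted p = 1.00), and 0.79 on a second probe. Rrp12, which accompanies small-subunit precursors on export, measured 6.84 and 5.81 in triple-negative, 6.38 and 6.42 in PD-1+, 5.85 and 5.21 in LAG3+, and 6.66 and 6.60 in double-positive cells, a difference of 1.10 ± 0.43 between double-positive and LAG3+ cells (limma, adjusted p = 1.00). The LAG3+ values of Rrp12 were below those of PD-1+ and double-positive cells and overlapped those of triple-negative cells.

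The brightest small-subunit member, Imp4 of the U3 snoRNP, varied little: it measured 8.65 and 7.77 in triple-negative, 8.59 and 7.88 in PD-1+, 8.25 and 8.17 in LAG3+, and 8.57 and 8.31 in double-positive cells. Every pair of populations overlapped except LAG3+ and double-positive. A second Imp4 probe, detected on 7 arrays, gave -0.38 for double-positive minus LAG3+ and -0.29 for double-positive minus triple-negative cells. The probe used gave 0.23 for both.

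Against triple-negative cells, the LAG3+ cells had lower means for most members. Of the 29, 21 were lower and 8 higher, beside 49% of all genes that were higher, with a median of -0.23 beside -0.01 over all genes, and -0.48 among the 17 members detected on all arrays. Both LAG3+ values lay below both triple-negative values for 7 members and above them for 3, compared with 19.6% and 19.2% of all genes. By limma 0 members passed, of 12 genes (0.152%) that did, and 1 member, Noc4l, had an unadjusted p under 0.05, against 9.3% of all genes. All 6 abundant nucleolar proteins, or 5 under median scaling, and all 3 box C/D proteins were lower, and Rrp9, a U3 snoRNP protein, had the lowest value at -1.09 ± 0.52 (adjusted p = 0.609).

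The PD-1+ cells had the lowest mean of the 4 populations for 16 of the 29 members, compared with 34.5% of all genes tested, and no member had its lowest mean in double-positive cells, compared with 22.6% of all genes. Under median scaling these counts were 10, beside 11.9% of all genes, and 5, beside 45%. Against triple-negative cells, 20 of 29 members were lower in PD-1+ cells and 9 higher, beside 47.3% of all genes that were higher, with a median of -0.22 beside -0.04 over all genes, and both values were below those of triple-negative cells for 14 members and above for 1, compared with 22.3% and 17.6% of all genes. By limma 0 members passed, beside 42 genes (0.533%) that did, and 6 members had an unadjusted p under 0.05, against 14.7% of all genes. The PD-1+ arrays also had the fewest detected probes and the lowest mean intensity of each experiment. The part of this in the members' values was not tested. Scaling matters for these arrays: median scaling moved the median of all genes in this comparison from -0.04 to 0.70, leaving the members at -0.03, or -0.73 relative to all genes, with 15 of 29 below 0 and 20 of 29 below the median of all genes.

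On the probes used, the lowest PD-1+ minus triple-negative differences were those of Rrp9, Gnl3, Nop14, Nip7 and Npm1. Rrp9 measured 7.19 and 7.25 in triple-negative, 5.81 and 4.27 in PD-1+, 5.83 and 6.43 in LAG3+, and 7.0 and 7.11 in double-positive cells. Both PD-1+ values lay below those of every other population, 1 of them narrowly, at 5.81 beside 5.83 on the LAG3+ array of experiment 1. The PD-1+ minus triple-negative difference was -2.18 ± 0.52 (limma, adjusted p = 0.128), and it was -2.95 (adjusted p = 0.0277 by limma) without the PD-1+ array of experiment 1 and -1.41 (adjusted p = 0.126) without that of experiment 2. Each of these fits leaves 1 PD-1+ array, which is assumed to vary like the other populations.

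Gnl3, the nucleolar GTPase nucleostemin, measured 9.80 and 8.40 in triple-negative, 6.14 and 7.72 in PD-1+, 8.88 and 7.75 in LAG3+, and 9.08 and 9.17 in double-positive cells. Both PD-1+ values were below those of all other arrays, 1 of them narrowly, and the PD-1+ minus triple-negative difference of -2.17 ± 0.70 (limma, adjusted p = 0.224) was -3.66 in experiment 1 and -0.68 in experiment 2. Nop14, a small-subunit factor, measured 6.90 and 7.31 in triple-negative, 5.99 and 4.54 in PD-1+, 6.36 and 7.43 in LAG3+, and 6.56 and 7.22 in double-positive cells. Its PD-1+ minus triple-negative difference was -1.83 ± 0.59 (limma, adjusted p = 0.224), with the PD-1+ values below all others, and it was -0.90 in experiment 1 and -2.76 in experiment 2.

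Npm1, the abundant nucleolar chaperone nucleophosmin, measured 10.39 and 10.13 in triple-negative, 8.95 and 9.37 in PD-1+, 10.08 and 9.48 in LAG3+, and 10.11 and 10.04 in double-positive cells. The PD-1+ values lay below all others, by -1.10 ± 0.35 from triple-negative cells (limma, adjusted p = 0.219). Npm1 has processed pseudogenes of near-identical sequence, so its probe may read more than 1 locus.

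**Figure D3:**
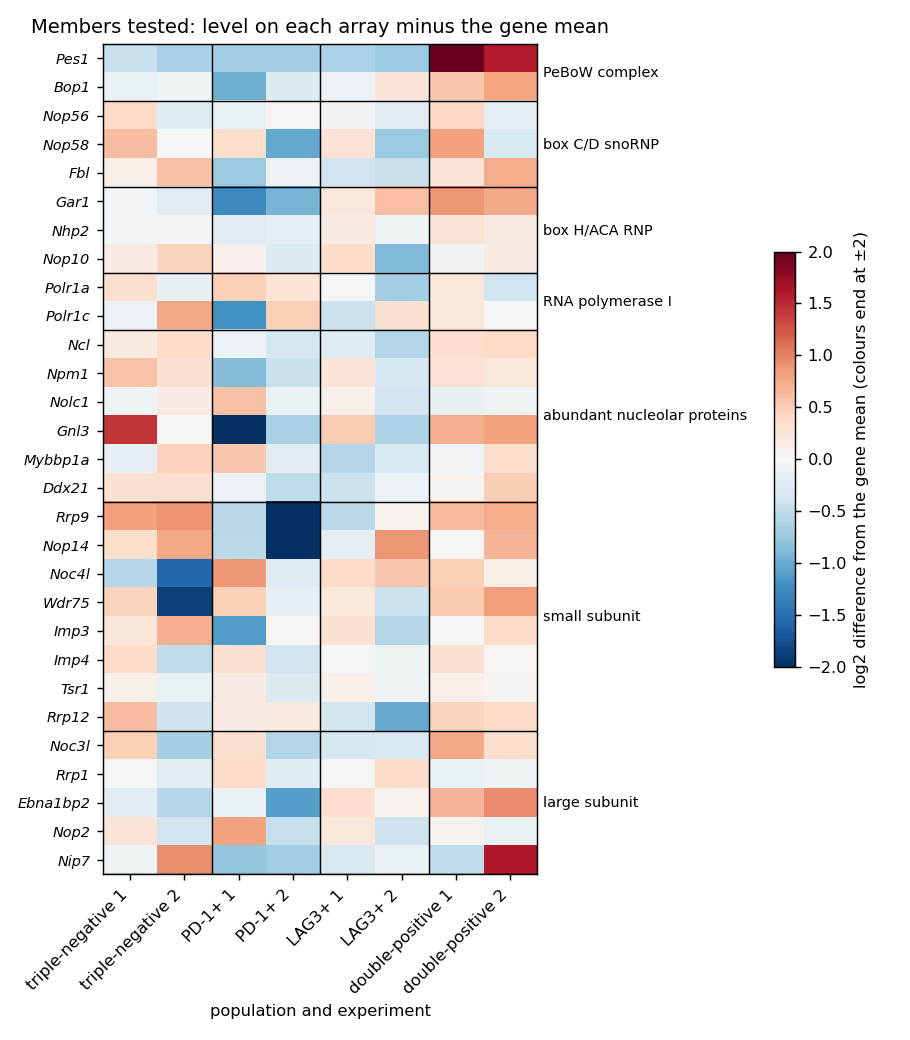
Level of each of the 29 members tested on each array, as the log2 difference from that gene's mean over the 8 arrays, with genes grouped by role and arrays by population and experiment. Pes1 is high on the 2 double-positive arrays, Gnl3 low on the PD-1+ array of experiment 1, and Rrp9 and Nop14 low on that of experiment 2; PD-1+ means were lowest for 16 members, beside 34.5% of all genes, or for 10 under median scaling, beside 11.9%.

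Double-positive cells had higher means than PD-1+ cells for 23 of the 29 members, beside 53.5% of all genes, with a median of 0.58 beside 0.05 over all genes. Under median scaling 19 were higher, with a median of 0.33 beside -0.82 over all genes, and 23 of the 29 lay above the median of all genes. Both values were higher in double-positive cells for 16 members and lower for 1, compared with 24.8% and 19.8% of all genes. By limma 0 members passed, beside 4 genes (0.0508%), and 9 members had an unadjusted p under 0.05, against 14.7% of all genes. The largest values after Pes1 were 2.20 ± 0.70 for Gnl3, 2.02 ± 0.52 for Rrp9 and 1.92 ± 0.31 for Gar1. Without the PD-1+ array of experiment 1, the difference was 2.78 for Rrp9 and 1.91 for Ebna1bp2. Without that of experiment 2, it was 1.25 for Rrp9 and 0.94 for Ebna1bp2. Each of these fits rests on 1 PD-1+ array, and Rrp9 was undetected on that of experiment 2. A second Ebna1bp2 probe gave 0.14 between double-positive and PD-1+ cells, beside 1.42 on the probe used. The comparisons above share arrays of the same populations and are not independent of each other.

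Between LAG3+ and PD-1+ cells, 18 of 29 members were higher in LAG3+ cells, beside 53.8% of all genes, with a median of 0.07 beside 0.05 over all genes. Under median scaling the members' median was -0.18 and that of all genes -0.65, with 18 of the 29 members above the latter. Both LAG3+ values were above both PD-1+ values for 9 members and below for 3, compared with 22.3% and 17.8% of all genes. By limma 0 members passed, beside 6 genes (0.0762%), and 2 members had an unadjusted p under 0.05, against 11.5% of all genes: Gar1 at 1.51 ± 0.31 and Nop14 at 1.63 ± 0.59. When the LAG3+ and double-positive sorts were set together against the LAG3-negative sorts, 20 of 29 members were higher, beside 50.8% of all genes, with a median of 0.08 beside 0.01 over all genes. Under median scaling the members' median was -0.06 and that of all genes -0.43, so the members lay 0.37 above all genes. By limma 0 members passed, beside 77 genes (0.977%), and 4 members had an unadjusted p under 0.05, against 15.9% of all genes. Gar1 and Ebna1bp2 were the members whose 4 LAG3+ values all exceeded the 4 LAG3-negative values, compared with 4.67% of all genes, and no member lay below in the same way, compared with 2.78%.

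In that comparison Gar1 was higher by 1.23 ± 0.22 with limma's adjusted p at 0.0613. The p became 0.0312 by limma without background subtraction, where 95 of 7869 genes passed. It was 0.0331 with an offset of 50, where 97 of 7877 genes passed, beside 77 of 7879 in the main fit. Gar1 also passed without the PD-1+ array of experiment 1 or 2, in fits that keep 1 array of that population. Its adjusted p lay between 0.0501 and 0.241 under the other 13 of 17 alternative settings. Ebna1bp2 was higher by 1.01 ± 0.29 (limma, adjusted p = 0.161), but a second probe of the gene gave -0.18. The difference of Ebna1bp2 was 1.25 without the PD-1+ array of experiment 1, which leaves 1 PD-1+ array. With the gene's probes averaged it was 0.41 (limma, adjusted p = 0.671).

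The remaining members are given by their range. Nop56, Nhp2, Nolc1, Tsr1, Rrp1 and Nop2 were dim, and in the comparison of double-positive with triple-negative cells they ranged from -0.16 for Nolc1 to 0.28 for Nhp2. Nip7, a large-subunit factor, was undetected on both PD-1+ arrays and measured 4.86 and 5.88 in triple-negative, 4.66 and 4.82 in LAG3+, and 4.45 and 6.55 in double-positive cells. It was at least 1.43-fold higher in triple-negative and at least 1.56-fold higher in double-positive than in PD-1+ cells, with limma's adjusted p at 0.497 and 0.437. A second Nip7 probe, detected on 2 arrays, gave 0.04 for PD-1+ minus triple-negative and 1.11 for double-positive minus PD-1+ cells. The probe used gave -1.16 and 1.29. Polr1a, the catalytic subunit of RNA polymerase I, and Mybbp1a had their highest means in PD-1+ cells, as did Nolc1 and Nop2. Their PD-1+ minus triple-negative differences were 0.29 ± 0.39, 0.0073 ± 0.41, 0.19 ± 0.37 and 0.22 ± 0.51, each smaller than its standard error. In experiments 1 and 2 Polr1a differed by 0.16 and 0.41. Mybbp1a differed by 0.70 and -0.69, Nolc1 by 0.67 and -0.29, and Nop2 by 0.52 and -0.08. Nop58, a scaffold of the box C/D snoRNPs, and the helicase Ddx21 each differed by -0.05 between double-positive and triple-negative cells, and the large-subunit factor Noc3l by 0.65 ± 0.49.

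A wider set of 127 other ribosome biogenesis genes, of which 115 had a probe and 98 were tested, was read beside the members. By limma none of these 98 passed in any comparison, with a lowest adjusted p of 0.0589. Per comparison, 3 to 21 of them had an unadjusted p under 0.05, against 2.64% to 15.9% of all genes. They were 5 for double-positive against triple-negative cells, beside 13.6% of all genes, and 21 for double-positive against PD-1+ cells, beside 14.7%. Between double-positive and LAG3+ cells 73 of 98 were higher, beside 51.5% of all genes, with a median of 0.22. Between PD-1+ and triple-negative cells 71 of 98 were lower and 27 higher, beside 47.3% of all genes that were higher. The median of the 98 there was -0.22, which turned to 0.23 under median scaling, or -0.46 relative to all genes. The largest double-positive minus triple-negative differences were 1.40 ± 1.22 for Nol10, 1.3 ± 0.60 for Mtrex, the RNA helicase of the nuclear exosome, and -1.22 ± 0.41 for Ddx24, a DEAD-box helicase.

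Myc was detected on 1 of 8 arrays, with log2 levels from 4.14 to 4.58, and 7 of 12 genes of the MYC and MAX network were tested, of which 0 passed by limma in any comparison. At most 1 of them per comparison had an unadjusted p under 0.05. Of 8 cell cycle genes tested, by limma 2 were called higher in double-positive, 1 in LAG3+ and 1 in PD-1+ cells than in triple-negative cells. Of all genes, 0.939%, 0.152% and 0.533% were called in these comparisons, in either direction. Against triple-negative cells, the cell cycle genes had a median of 1.60 in double-positive, 1.79 in LAG3+ and 0.99 in PD-1+ cells. The medians of all genes there were -0.01, -0.01 and -0.04. Between double-positive and LAG3+ cells the cell cycle median was 0.02 and that of all genes 0.01, while the members' median was 0.41. The difference between these lists was not tested. Summed intensities of the 9 cell cycle genes with a probe were 455 and 268 in triple-negative, 1634 and 1060 in PD-1+, 2179 and 1817 in LAG3+, and 2291 and 1881 in double-positive cells. Macrophage genes, 10 of 10 on the array, summed to 286 and 867 on the PD-1+ arrays and to 40.8 to 156 on the others. B cell genes, with Cd79a and Ms4a1 undetected throughout, summed to 247 and 274 on the PD-1+ arrays and to 8.26 to 97.2 on the others. Dendritic cell and class II genes summed to 982 and 1547 in PD-1+, 1097.5 and 914 in triple-negative, and 277 to 498 on the others. The part of the melanoma, macrophage, B cell and class II signals in the members' values was not tested.

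**Figure D4:**
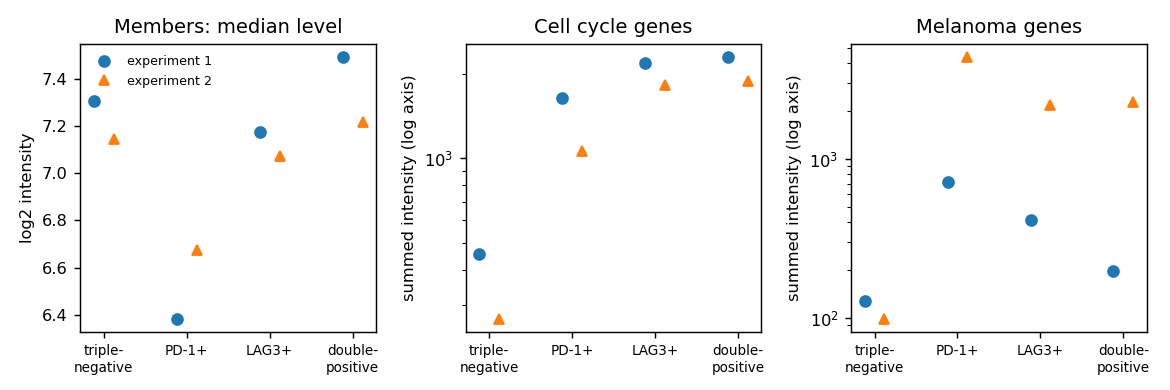
Median log2 intensity of the 29 members tested and summed intensities of the cell cycle and melanoma lists (log axes) on each array, with experiment 1 as circles and experiment 2 as triangles. The members' median ran from 6.38 and 6.67 on the PD-1+ arrays to 7.49 and 7.22 on the double-positive arrays, while the cell cycle sums of LAG3+ and double-positive arrays lay side by side and the melanoma sums of experiment 2 were highest in PD-1+ cells.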

How the data were processed

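RNA of 8 sorted samples was hybridised to Illumina mouse bead arrays. The deposited table of the authors gives a non-normalized bead intensity and a detection p-value per probe and array; a second table of the authors holds normalized intensity values of the same arrays, whose lowest value was -9.6. How these were normalized was not given in the sources used here.

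Intensities were background-corrected, quantile-normalized and log2-transformed with neqc (limma 3.58.1, R 4.3.3; offset 16; negative controls inferred from detection p-values). The brightest probe represented each gene; genes with detection p under 0.05 on at least 2 arrays were tested. Gene names came from the platform annotation, updated by gene identifier, for 23978 of 25697 probes. Limma estimated a mean for each population from the 8 arrays together, without a block, leaving 4 residual degrees of freedom, and p-values were adjusted over all genes tested (Benjamini-Hochberg, two-sided). An exact test of 2 against 2 arrays cannot go below 0.333 and was not used. The fitting was tested on simulated data. P-values measure the spread between 2 experiments on pooled tumors, and the number of arrays limits precision.

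Arrays of the same number come from the same experiment, per the titles in the labels. Deviations of same-numbered arrays from their population means correlated at 0.0919 to 0.222, so the experiment was tried as a block. Per-array values are given for members past the threshold, the 5 highest and 3 lowest differences (double-positive minus triple-negative) and the brightest of each role; Rrp9, Gnl3, Nop14, Ncl and Rrp12 (and Nip7) were added after their values were seen. Members, lists and the rule were chosen with earlier results of these data known. Promoters are RefSeq sequences of GRCm38.p6. Changes were recomputed under 10 other settings and without each of the 8 arrays.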

Additional observations from a re-analysis of the deposited data

How the results depend on the processing

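The experiment as a replicate block changed no call on a member: with it 1 member passed between double-positive and triple-negative cells, Pes1 at 2.48 with limma's adjusted p at 0.0331. Pes1 was the 1 member called there, and the count was 0 under median scaling. It was also 0 among genes detected on all 8 arrays, but Pes1, detected on 3, was not tested there. The call on Pes1 was lost in some fits without 1 array. With 1 array left out, calls on members changed for PD-1+ against triple-negative, double-positive against PD-1+ and the LAG3+ against the LAG3-negative sorts. They did not change for LAG3+ against triple-negative, double-positive against LAG3+ or LAG3+ against PD-1+. Where calls changed, the number of all genes called shifted as well, and each such fit keeps 1 array of a population. The count of members past the threshold was 1 (Gar1) for double-positive against PD-1+ cells among genes detected on all arrays, where 40 of 2973 genes passed. It was 1 (Gar1) for the LAG3+ sorts without background subtraction, where 95 of 7869 genes passed, and with an offset of 50, where 97 of 7877 did.

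The members' median against LAG3-negative sorts turned to -0.057 under median scaling, and that of LAG3+ against PD-1+ cells to -0.18, while the medians of all genes moved to -0.43 and -0.65, leaving the members 0.37 and 0.47 above them. For LAG3+ against triple-negative cells the median was -0.12 without background subtraction and -0.48 among genes detected on all arrays. For PD-1+ against triple-negative cells it was -0.025 under median scaling, -0.14 without background subtraction, -0.18 with an offset of 50, -0.13 without the detection filter, -0.51 among genes detected on all arrays and -0.13 with probes averaged. For double-positive against PD-1+ cells it was 0.33 under median scaling and 0.37 without background subtraction. Leaving out 1 array gave medians of -0.031 to 0.21 for double-positive against triple-negative, -0.38 to -0.12 for LAG3+ against triple-negative, -0.42 to -0.16 for PD-1+ against triple-negative, 0.39 to 0.60 for double-positive against LAG3+, 0.38 to 0.61 for double-positive against PD-1+, -0.15 to 0.26 for LAG3+ against PD-1+ and 0.020 to 0.22 for the LAG3+ sorts. The causes were not tested.

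Of single genes in double-positive against triple-negative cells, Imp4 turned to -0.027 with probes averaged. Leaving out 1 array gave -0.20 to 0.67 for Imp4, -0.67 to 0.21 for Polr1c and -0.093 to 0.39 for Fbl; the signs turned without triple-negative array 2 for Imp4 and Polr1c, and without triple-negative array 1 or double-positive array 2 for Fbl. Of the 656 recalculated single-gene results, 634 kept their direction and side of the threshold. Most of them were not past the threshold in the main fit, so this share says little about calls. Pes1 in double-positive against triple-negative cells, the only one that was past it, kept its call in 10 of 17 alternatives. The count of all genes called between double-positive and triple-negative cells was 74, and ranged from 0 (leaving out triple-negative array 1, or a double-positive array) to 229 with array weights. Signals near background, as for Pes1 outside double-positive cells, have no order.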
